A study of Homo sapiens with 18 samples.

Results

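The genes described are the long host transcripts that carry small nucleolar RNAs (snoRNAs) or microRNAs. They were chosen by name and level: GAS5, every gene named SNHG and a number, and every gene whose symbol begins with MIR and ends with HG, with a mean of at least 0.5 CPM over all 18 libraries. CPM is a gene's count scaled to the library's total count in genes. The CPM of a member in single libraries, given below, are also scaled by a normalization factor per library (TMM). Marker, summed and small RNA CPM are not. Of 60609 gene identifiers, 113 had such a name and 54 were kept, 25 of them snoRNA hosts (SNHG genes and GAS5) and 29 microRNA hosts. MIR223HG and MIR210HG were left out by the rule, and 57 names lay under 0.5 CPM, 20 of these at 0 counts in every library. The members nearest the threshold were MIR124-1HG at 0.652 CPM, MIR99AHG at 0.527 CPM and MIR181A1HG at 0.523 CPM, and the names nearest below it were MIR5689HG at 0.166 CPM, SNHG22 at 0.144 CPM and MIR100HG at 0.139 CPM. Presence at a measurable level was therefore set by the choice of genes.

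OCI-AML1, an established human acute myeloid leukemia line labelled wild type, received DMSO (the solvent), AML874 or SEL120-34A, and RNA was taken at 8 h or at 24 h. The 6 groups had 3 libraries each. SEL120-34A is known to block the Mediator kinases CDK8 and CDK19, and AML874 is known here by its code name alone. Concentrations are not given in the sources used here, so the compounds are compared at matched times with unknown doses, and the labels do not say that the 3 libraries of a group came from separate cultures, so the p-values measure the spread between libraries. Libraries held 98975944 to 142496541 counts in genes, and 3 counts, the upper limit that a count of 0 allows, correspond to 0.0211 to 0.0303 CPM. Among myeloid markers PTPRC ranged from 282 to 370 CPM, CD33 from 52.3 to 97.8 CPM and SPI1 from 167 to 242 CPM, whereas ANPEP was at or near 0 and KIT stayed under 1 CPM at 0.123 to 0.899 CPM. CD3D, CD3E, CD3G, CD2, MS4A1 and the globin genes HBB, HBA1 and HBA2 were at or near 0, and NCAM1 at 65.5 to 93.3 CPM and PECAM1 at 48.5 to 74.3 CPM were expressed. In bulk RNA, fewer cells with a transcript and less of it per cell cannot be told apart.

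Most human snoRNAs are cut out of introns of longer transcripts after splicing. Box C/D snoRNAs guide 2'-O-methylation, and box H/ACA snoRNAs guide pseudouridylation, chiefly of ribosomal RNA. The spliced exons of hosts such as GAS5 are poor templates for protein and are removed by nonsense-mediated decay, and several hosts share with ribosomal protein genes a pyrimidine tract at the transcription start. microRNA hosts are primary transcripts from which the enzyme DROSHA cuts a hairpin, in an intron or in an exon, and a cut in an exon destroys the host molecule. The hosts of the miR-17-92 cluster, miR-142, miR-155, miR-221 and miR-222, and the miR-23a cluster are known from blood cell development and leukemia. The libraries were made from polyadenylated RNA, so they measured the hosts and not the mature small RNAs.

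The small RNAs of the hosts whose levels are described most fully are printed to show what each host carries. RefSeq (GRCh38.p14) placed 141 snoRNA genes and 51 microRNA genes inside the spans of the members on either strand, with 83 of the snoRNAs in SNHG14, 11 in GAS5 and 9 in SNHG1. Sequences of snoRNAs are from GENCODE release 29 transcripts on GRCh38. SNORD93 and SNORD60 touch no annotated exon of their host, and SNORD25 and SNORA9 touch an exon of at least 1 host transcript. Capitals mark the first GATGA and the last CTGA, parts of the C and D boxes, or the ACA box.
SNORD93 (in SNHG26, chr7:22856613-22856686, plus strand): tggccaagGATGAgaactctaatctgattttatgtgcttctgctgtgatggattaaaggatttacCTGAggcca
SNORD25 (in SNHG1, chr11:62855564-62855632, minus strand): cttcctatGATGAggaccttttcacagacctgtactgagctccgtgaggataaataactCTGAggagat
SNORD60 (in SNHG19, chr16:2155023-2155105, minus strand): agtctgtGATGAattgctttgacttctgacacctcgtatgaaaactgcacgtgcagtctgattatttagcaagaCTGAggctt
SNORA9 (in SNHG15, chr7:44985378-44985510, minus strand): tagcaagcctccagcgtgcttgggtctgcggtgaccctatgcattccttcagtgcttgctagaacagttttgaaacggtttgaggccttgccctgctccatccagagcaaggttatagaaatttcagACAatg

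Mature microRNAs are from RefSeq, with the seed (bases 2 to 8) in capitals. RefSeq gave 80 mature sequences for 27 of the hosts, counted on the host's own strand and without MIR124-1HG, which was left out of this count.
hsa-miR-17-5p (MIR17HG, chr13:91350618-91350640): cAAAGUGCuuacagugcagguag
hsa-miR-20a-5p (MIR17HG, chr13:91351072-91351094): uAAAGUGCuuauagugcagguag
hsa-miR-19a-3p (MIR17HG, chr13:91350939-91350961): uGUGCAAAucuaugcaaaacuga
hsa-miR-19b-3p (MIR17HG, chr13:91351245-91351267): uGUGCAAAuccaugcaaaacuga
hsa-miR-221-3p (MIR222HG, chrX:45746180-45746202): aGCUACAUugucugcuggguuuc
hsa-miR-222-3p (MIR222HG, chrX:45747036-45747056): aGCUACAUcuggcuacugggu
hsa-miR-23a-3p (MIR23AHG, chr19:13836595-13836615): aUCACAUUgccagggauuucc
hsa-miR-27a-3p (MIR23AHG, chr19:13836447-13836467): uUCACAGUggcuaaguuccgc
hsa-miR-24-3p (MIR23AHG, chr19:13836289-13836310): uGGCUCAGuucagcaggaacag
hsa-miR-142-3p (MIR142HG, chr17:58331245-58331267): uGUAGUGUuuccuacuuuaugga
hsa-miR-155-5p (MIR155HG, chr21:25573983-25574006): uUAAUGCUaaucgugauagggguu
hsa-miR-146a-5p (MIR3142HG, chr5:160485372-160485393): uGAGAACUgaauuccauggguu
hsa-miR-646 (MIR646HG, chr20:60308534-60308552): aAGCAGCUgccucugaggc
MIR17HG carries a pair with the seed AAAGUGC and a pair with GUGCAAA, and both products of MIR222HG have GCUACAU. The seed GAGGUAG, that of let-7, was spread over 4 hosts, MIRLET7BHG, MIRLET7IHG, MIR99AHG and MIR4458HG.

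Per length, the snoRNA hosts were the more abundant class. In TPM, which scales for length as well as depth, averaged over the 18 libraries, SNHG29 stood at 760.5 TPM, GAS5 at 422 TPM, SNHG5 at 374 TPM, SNHG6 at 359.7 TPM, SNHG8 at 291 TPM and SNHG1 at 153.5 TPM. Every member above MIR142HG in this order was a snoRNA host. The highest microRNA hosts were MIR142HG at 30.7 TPM, MIR4435-2HG at 20.9 TPM and MIR155HG at 19.7 TPM. MIR17HG was at 11.2 TPM and MIR29B2CHG, the lowest member, at 0.267 TPM. SNHG31, at 0.701 TPM, was the lowest of the snoRNA hosts. Levels of SNHG32 and SNHG21 are uncertain, because the RSEM counts from which TPM is made were 3.27 and 4.24 times the strand-specific STAR counts, against a median of 0.946 over the members. The rank of MIR4435-2HG is uncertain too, with a ratio of 1.47 and opposite-strand reads at 102% of its counts.

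**Figure D1:**
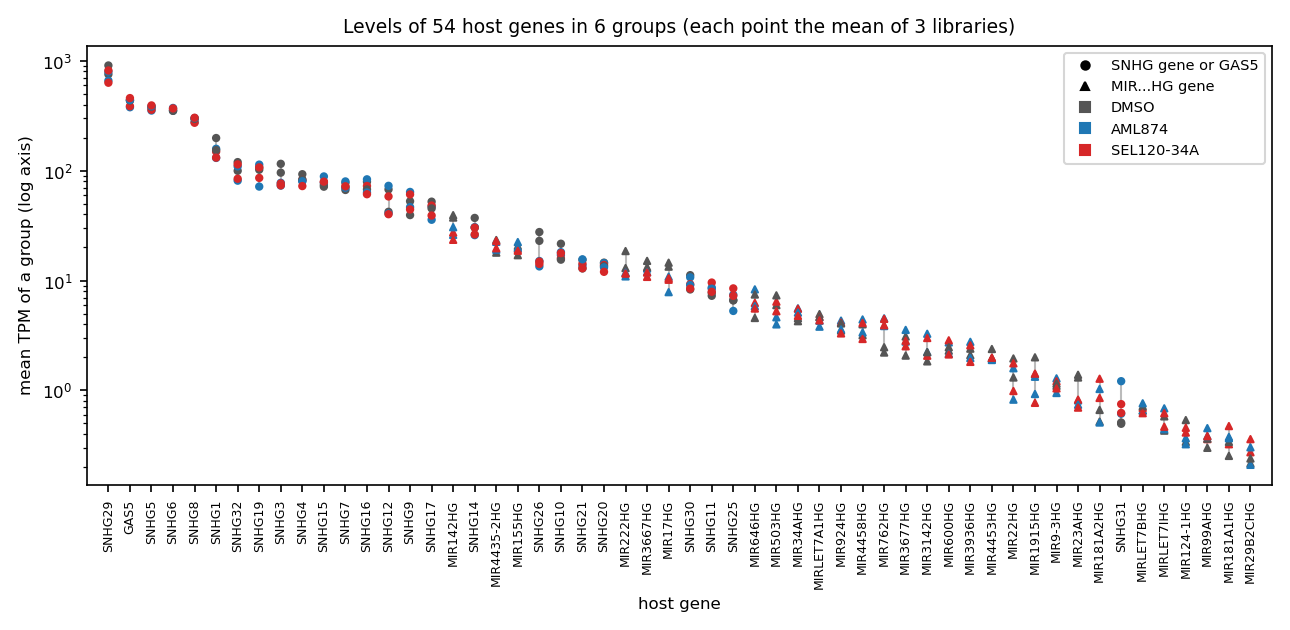
Mean TPM (log axis) of each of the 54 host genes in the 6 groups, each point the mean of 3 libraries, in order of level. snoRNA hosts (circles) fill the left of the plot, from SNHG29 at 760.5 TPM, and the highest microRNA host (triangles) is MIR142HG at 30.7 TPM.

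At 8 h, most snoRNA hosts that changed were lower with either compound. Of the 25 snoRNA hosts, 2 were higher and 12 lower with AML874, and 2 were higher and 19 lower with SEL120-34A, with median log2 fold changes of -0.25 and -0.31 where the median of all genes was 0.00 in both. The few rises depend on the setting: with AML874 they ranged from 0 (HIF target mean as a covariate) to 5 (library totals alone), and with SEL120-34A from 1 to 4. They came to 0 for AML874 without DMSO replicate 2 or 3, AML874 replicate 1 or 2 or SEL120-34A replicate 3, and to 1 without any other 8 h library or without DMSO replicate 2 or 3 or SEL120-34A replicate 3 at 24 h. For SEL120-34A they came to 0 without DMSO replicate 3 and to 1 without DMSO replicate 2, AML874 replicate 1 or 2 or SEL120-34A replicate 2 or 3 at 8 h. Of all 54 members, 10 were higher and 21 lower with AML874, and 9 were higher and 29 lower with SEL120-34A. Of the 20920 genes tested, 39.6% changed with AML874 (19.7% higher and 19.9% lower) and 45.1% changed with SEL120-34A (22.4% higher and 22.6% lower). Changes are log2 fold changes from edgeR's quasi-likelihood test with Benjamini-Hochberg adjustment over all genes tested, and a gene is said to have risen or fallen where the adjusted p was under 0.05. The summed level of the 25 snoRNA hosts was 1931 ± 28.6 CPM (SD, n = 3) with DMSO, 1714 ± 14.1 CPM with AML874 and 1636 ± 23.1 CPM with SEL120-34A, without overlap between the 3 groups. Scaled by library totals alone, 15 members were higher and 21 lower with AML874 and 11 higher and 24 lower with SEL120-34A at 8 h, and among all genes the higher share of calls moved from 49.8% to 63.5% with AML874 and from 49.8% to 66.5% with SEL120-34A. Both comparisons use the same 3 DMSO libraries.

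GAS5 (chr1:173863900-173868882, minus strand), a host of box C/D snoRNAs, had 224, 227 and 217 CPM in the DMSO libraries at 8 h, 182, 184 and 185 CPM with AML874, and 164, 160.5 and 170.2 CPM with SEL120-34A. The 3 groups did not overlap in CPM, and SEL120-34A gave the lowest CPM. The fall was -0.28 (SE 0.026, adjusted p = 8.03e-11) with AML874 and -0.43 (SE 0.026, adjusted p = 1.1e-15) with SEL120-34A. In TPM the order of the compounds was the other way. Means at 8 h were 438 ± 3.07 TPM (SD, n = 3) with DMSO, 378 ± 2.73 TPM with AML874 and 386 ± 4.99 TPM with SEL120-34A. At 24 h they were 435 ± 3.16, 439 ± 11.2 and 458 ± 5.14 TPM in turn. Why the measures differ was not tested. SNHG1 (chr11:62851988-62855914, minus strand), which carries SNORD25 and its neighbours, went from 159, 159 and 154 CPM with DMSO to 122, 125 and 125 CPM with AML874 and 113, 111 and 114 CPM with SEL120-34A. Every SNHG1 library with a compound lay under every DMSO library, with changes of -0.34 (SE 0.027, adjusted p = 9.67e-13) and -0.48 (SE 0.027, adjusted p = 1.42e-16).

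SNHG26 (chr7:22854178-22861579, plus strand), host of SNORD93, had the largest fall of any member at 8 h. Its levels were 35.96, 35.1 and 34.0 CPM with DMSO, 18.2, 19.1 and 18.6 CPM with AML874 and 18.3, 18.1 and 19.3 CPM with SEL120-34A. Both compounds brought it to about the same level, at -0.91 (SE 0.050, adjusted p = 1.57e-15) and -0.92 (SE 0.051, adjusted p = 1.03e-15). SNHG3 (chr1:28505980-28510892, plus strand), a host of H/ACA snoRNAs, went from 151, 152 and 148 CPM to 91.7, 99.5 and 96.7 CPM with AML874 and 102, 90.4 and 102 CPM with SEL120-34A, changes of -0.65 (SE 0.043, adjusted p = 8.15e-11) and -0.61 (SE 0.043, adjusted p = 1.44e-10). SNHG29, the most abundant host, fell by 0.25 with AML874 and 0.32 with SEL120-34A on the log2 scale. The only snoRNA host that rose with both compounds at 8 h was SNHG31, from 0.895, 0.702 and 0.632 CPM with DMSO to 1.12, 1.09 and 0.775 CPM with AML874 and 0.978, 1.15 and 1.12 CPM with SEL120-34A. Its libraries overlapped for AML874 (0.45, adjusted p = 0.0391), a call lost without any 1 of DMSO replicates 2 and 3, AML874 replicates 1 and 2 and SEL120-34A replicate 3, with values from 0.33 to 0.579 over all alternatives, and the SEL120-34A call (0.55, adjusted p = 0.00923) was lost without DMSO replicate 3 at 8 h (0.436, adjusted p = 0.0656).

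**Figure D2:**
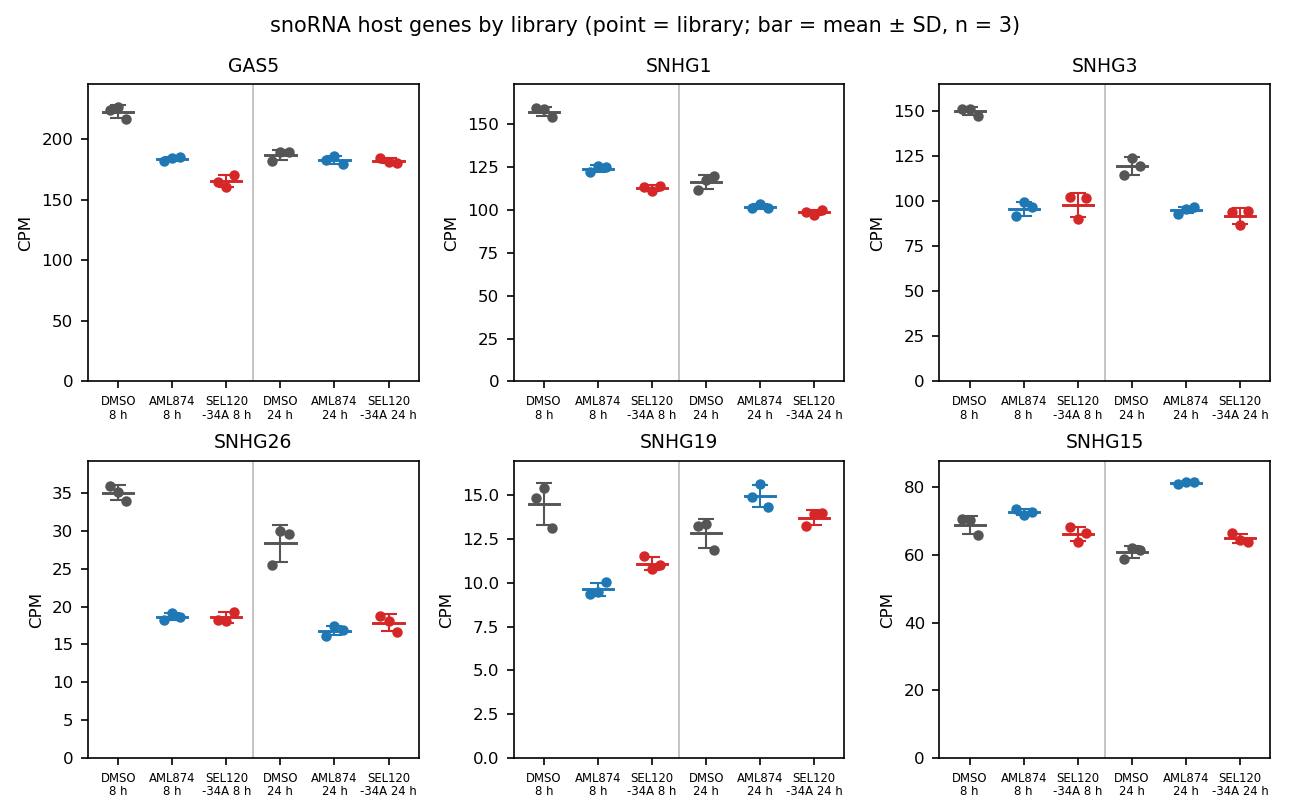
CPM of 6 snoRNA hosts in each library (points), with the mean and SD of 3 libraries, for DMSO (grey), AML874 (blue) and SEL120-34A (red) at 8 h and 24 h. At 8 h GAS5, SNHG1, SNHG3, SNHG26 and SNHG19 lie lower with both compounds, and by 24 h the GAS5 groups overlap at 179 to 189.6 CPM.

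At 24 h the snoRNA hosts were split. With AML874, 12 of 25 were higher and 7 lower (median 0.051), and with SEL120-34A 5 were higher and 9 lower (median -0.037). The 5 rises with SEL120-34A became 9 with a filter of 1 CPM in 3 libraries, 3 with RSEM counts or the HIF covariate, and 3 without DMSO replicate 1 or 3 at 24 h. Over all 54 members, 19 were higher and 19 lower with AML874, where 46.8% of all genes changed (23.1% higher and 23.7% lower), and 10 were higher and 23 lower with SEL120-34A, where 37.7% changed (19.1% higher and 18.6% lower). SNHG26 stayed low at 24 h, with 25.5, 29.9 and 29.5 CPM for DMSO, 16.1, 17.4 and 16.9 CPM for AML874 and 18.8, 18.1 and 16.6 CPM for SEL120-34A. Its changes were -0.75 (SE 0.051, adjusted p = 9.07e-14) and -0.67 (SE 0.051, adjusted p = 2.56e-12). SNHG1 remained lower by -0.19 (adjusted p = 2.62e-07) and -0.24 (adjusted p = 5.27e-09), with no overlap of either compound's libraries with DMSO. GAS5, by contrast, had overlapping libraries at 182, 189 and 189.6 CPM with DMSO, 183, 186 and 179 CPM with AML874 and 184, 181 and 180.4 CPM with SEL120-34A, at -0.032 (SE 0.026, adjusted p = 0.338) and -0.037 (SE 0.026, adjusted p = 0.277). With the mean of HIF target genes as a covariate, both GAS5 values were -0.061 and passed the test (adjusted p = 0.0374 and 0.0371).

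SNHG15 (chr7:44983023-44986961, minus strand), host of SNORA9, was higher with AML874 at 24 h. DMSO libraries held 58.8, 62.2 and 61.6 CPM, AML874 libraries 81.1, 81.6 and 81.6 CPM and SEL120-34A libraries 66.5, 64.4 and 63.9 CPM. AML874 libraries stood above those of both other groups, and the rise over DMSO was 0.42 (SE 0.031, adjusted p = 1.18e-13). SNHG31 (chr2:214810229-214963274, plus strand) rose further, from 0.732, 0.788 and 0.569 CPM with DMSO to 1.59, 1.68 and 2.18 CPM with AML874 and 1.15, 1.304 and 1.49 CPM with SEL120-34A. Libraries of both compounds lay above DMSO, and the AML874 value was 1.38 (SE 0.16, adjusted p = 6.99e-09) and that for SEL120-34A was 0.92 (SE 0.17, adjusted p = 2.85e-05). SNHG31 is a rare transcript, at 0.569 to 2.18 CPM.

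The change between the times can be followed within each treatment. In DMSO, 2 of 25 snoRNA hosts rose and 18 fell from 8 h to 24 h, with a median of -0.27, and of all 54 members 9 rose and 25 fell where 42.5% of all genes changed (19.8% higher and 22.7% lower). SNHG12, a host of several snoRNAs, fell most, from 37.3, 37.8 and 34.3 CPM to 20.4, 22.4 and 23.2 CPM (-0.73, SE 0.048, adjusted p = 5.25e-13). GAS5 fell by 0.25 (adjusted p = 6.41e-10) and SNHG1 by 0.44 (adjusted p = 3.67e-15) on the log2 scale in DMSO, whereas SNHG29 rose by 0.19 and SNHG14 by 0.41. The mean TPM of GAS5 in DMSO was 438 at 8 h and 435 at 24 h, so its fall was not seen in TPM. The GAS5 fall was called in all 28 alternatives, rounded RSEM counts among them. The same comparison within each compound was added after the values were seen. With AML874, 9 snoRNA hosts rose and 9 fell (median -0.011), among 19 members higher and 17 lower where 25.3% of all genes were higher and 27% lower. With SEL120-34A, 7 rose and 8 fell (median -0.028), among 13 members higher and 17 lower where 24.5% were higher and 26.2% lower. GAS5 was level over time with AML874 (-0.0080, adjusted p = 0.821) and rose by 0.14 with SEL120-34A (adjusted p = 1.97e-05), and SNHG12 fell with both (-0.81 and -0.52).

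The difference between the effect at 24 h and the effect at 8 h was tested in the same fit. For AML874, 13 of 25 snoRNA hosts had a higher effect at 24 h and 0 a lower one (median 0.17), and for SEL120-34A 15 had a higher and 0 a lower one (median 0.21). Of all 54 members, 18 were higher and 4 lower for AML874, where 23.6% of all genes changed (11.1% higher and 12.5% lower), and 20 were higher and 6 lower for SEL120-34A, where 27.3% changed (14.2% higher and 13% lower). Scaled by library totals alone, these became 14 higher and 7 lower for AML874 and 14 higher and 8 lower for SEL120-34A, with 12 higher and 1 lower, and 10 higher and 0 lower, among the snoRNA hosts. GAS5 differed by 0.24 (SE 0.037, adjusted p = 3.71e-06) and 0.39 (SE 0.037, adjusted p = 2.72e-10). SNHG19 (chr16:2154797-2155358, minus strand), host of SNORD60, was at 14.9, 15.5 and 13.1 CPM with DMSO, 9.39, 9.47 and 10.03 CPM with AML874 and 11.5, 10.8 and 11.0 CPM with SEL120-34A at 8 h. At 24 h SNHG19 stood at 13.2, 13.4 and 11.9 CPM with DMSO, 14.9, 15.6 and 14.4 CPM with AML874 and 13.3, 13.9 and 14.0 CPM with SEL120-34A. It thus went from below DMSO to above it with AML874, a difference of 0.81 (SE 0.080, adjusted p = 1.28e-09), and differed by 0.48 (SE 0.080, adjusted p = 1.59e-05) with SEL120-34A. SNHG10 was at -0.38 and 0.17 with AML874 and -0.40 and 0.12 (adjusted p = 0.0851) with SEL120-34A, a difference of 0.52 (adjusted p = 1.54e-06) for the latter. The SNHG10 rise with AML874 at 24 h was lost with the HIF covariate (0.115, adjusted p = 0.0726) and without DMSO replicate 1. SNHG21, whose counts differ by source as given above, differed by 0.49 for SEL120-34A (adjusted p = 0.0332) but by 0.182 with RSEM counts (adjusted p = 0.209), and SNHG31 by 0.93 for AML874 (adjusted p = 0.00338). All these comparisons share DMSO libraries, so the counts for the 2 compounds are not independent.

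**Figure D3:**
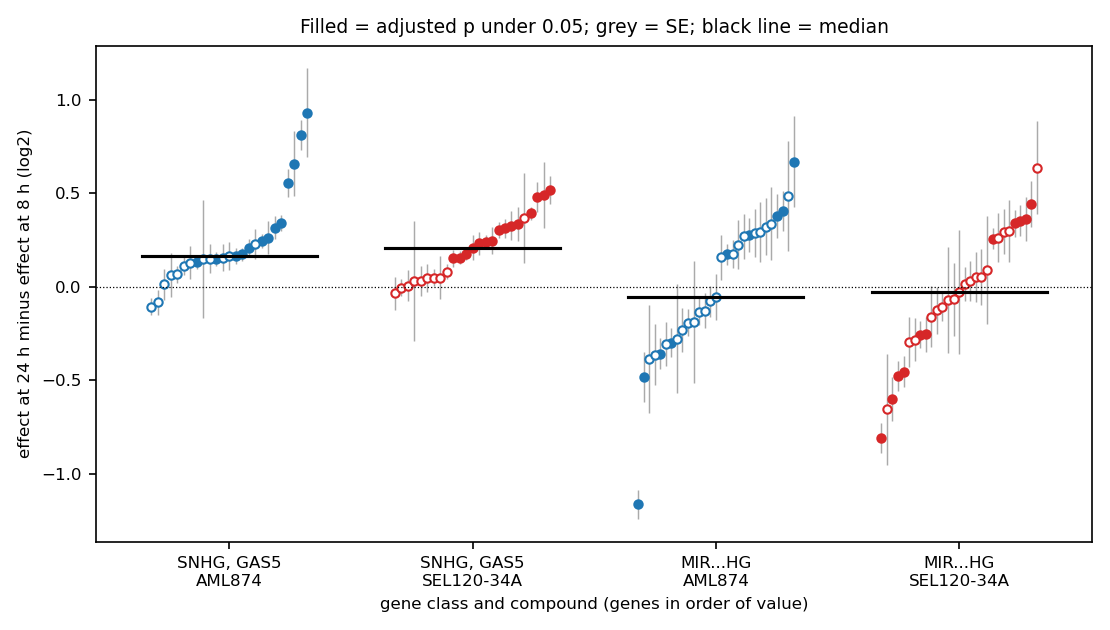
Effect at 24 h minus effect at 8 h (log2, with SE as grey lines) for each host gene, by class and compound, filled where the adjusted p is under 0.05, with the median as a black line. The medians of the snoRNA hosts lie at 0.17 for AML874 and 0.21 for SEL120-34A, and MIR646HG is the lowest point of the microRNA hosts for both, at -1.16 and -0.81.

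The mean log2 CPM of 25 HIF target genes, a list of low-oxygen response genes, also moved with time and treatment. It was 5.47 to 6.11 with DMSO, 5.34 to 5.41 with AML874 and 5.25 to 5.86 with SEL120-34A at 8 h, and 6.18 to 6.44, 5.79 to 6.12 and 5.84 to 6.28 at 24 h. With this mean as a covariate, the snoRNA hosts higher and lower were 0 and 14 (AML874, 8 h), 1 and 20 (SEL120-34A, 8 h), 10 and 11 (AML874, 24 h) and 3 and 12 (SEL120-34A, 24 h). The late-minus-early counts were then 16 and 0 for AML874 and 15 and 0 for SEL120-34A, and the fall in DMSO over time held 15 of 25. Between libraries of the same group, 6 members correlated with the HIF mean at over 0.7 in size. They were SNHG4 (-0.88), SNHG17 (-0.83), SNHG12 (-0.83), SNHG15 (-0.74), SNHG3 (-0.73) and GAS5 (-0.71). The highest positive value was that of SNHG14, at 0.60. Why these hosts vary with the HIF mean was not tested.

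The microRNA hosts moved both ways in every comparison with DMSO. Of 29, 8 were higher and 9 lower with AML874 and 7 higher and 10 lower with SEL120-34A at 8 h, and 7 were higher and 12 lower, and 5 higher and 14 lower, at 24 h. In percent these were 58.6 and 58.6 of the hosts at 8 h and 65.5 and 65.5 at 24 h, where 39.6% and 45.1%, and 46.8% and 37.7%, of all genes changed in either direction. Their summed level was 217 to 222 CPM with DMSO, 199 to 206 CPM with AML874 and 195 to 201 CPM with SEL120-34A at 8 h, and 209.6 to 238 CPM, 195.0 to 203 CPM and 180.2 to 189 CPM at 24 h. Libraries with a compound thus lay under every DMSO library at each time, and at 24 h those with SEL120-34A lay under those with AML874.

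MIR23AHG (chr19:13823880-13842928, minus strand), host of miR-23a, miR-27a and miR-24, fell in all 4 comparisons and had the largest fall of any member at 24 h. It had 20.6, 21.1 and 20.5 CPM with DMSO, 12.6, 12.8 and 12.3 CPM with AML874 and 12.9, 11.7 and 13.5 CPM with SEL120-34A at 8 h. At 24 h MIR23AHG had 20.1, 20.4 and 22.7 CPM with DMSO, 11.5, 11.8 and 11.6 CPM with AML874 and 10.8, 10.3 and 11.3 CPM with SEL120-34A. Neither time showed any overlap with DMSO, and the changes were -0.72 and -0.71 at 8 h (adjusted p = 8.77e-14 and 1.28e-13) and -0.86 and -0.96 at 24 h (adjusted p = 5.45e-16 and 5.48e-17). Reads on the opposite strand of MIR23AHG came to 37.7% of its counts.

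MIR17HG (chr13:91347820-91354579, plus strand), host of the miR-17-92 cluster, had 15.8, 16.7 and 15.1 CPM with DMSO, 10.7, 11.3 and 10.4 CPM with AML874 and 10.1, 9.36 and 10.5 CPM with SEL120-34A at 8 h. At 24 h its values were 12.9, 13.5 and 15.2 CPM, 8.25, 9.60 and 9.03 CPM, and 11.3, 11.1 and 11.1 CPM. Compound libraries lay under DMSO at both times, and at 24 h AML874 lay under SEL120-34A. The changes of MIR17HG were -0.55 (SE 0.060, adjusted p = 2.08e-09) and -0.67 (SE 0.060, adjusted p = 2.96e-11) at 8 h, and -0.63 (SE 0.061, adjusted p = 9.62e-11) and -0.31 (SE 0.060, adjusted p = 6.84e-05) at 24 h. MIR142HG (chr17:58330884-58332508, minus strand), host of the blood-cell microRNA miR-142, went at 8 h from 37.4, 36.9 and 34.1 CPM to 21.5, 24.1 and 25.02 CPM with AML874 and 24.4, 22.7 and 24.4 CPM with SEL120-34A, falling by 0.62 and 0.60 on the log2 scale. At 24 h MIR142HG had 27.7, 33.5 and 35.8 CPM with DMSO, 28.4, 27.8 and 27.5 CPM with AML874 and 21.4, 22.3 and 21.9 CPM with SEL120-34A. The AML874 libraries then overlapped DMSO, with a change of -0.21 (adjusted p = 0.0317), while the SEL120-34A libraries did not (-0.57, adjusted p = 2.94e-05). The AML874 call at 24 h was lost without any 1 of DMSO replicates 2 and 3 and AML874 replicates 1 to 3, with values from -0.315 to -0.134 over all alternatives.

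MIR222HG, host of miR-221 and miR-222, rose over time in DMSO from 13.3, 14.4 and 13.4 CPM to 18.6, 18.4 and 19.8 CPM (0.47, SE 0.055, adjusted p = 1.09e-08). With compound it was 11.0, 11.8 and 10.7 CPM and 12.6, 10.7 and 12.2 CPM at 8 h, and 13.0, 12.1 and 12.6 CPM and 11.3, 12.3 and 11.7 CPM at 24 h, for AML874 and SEL120-34A in turn. Its fall was therefore larger at 24 h: -0.29 and -0.21 at 8 h against -0.59 and -0.69 at 24 h, with a difference of -0.48 (SE 0.079, adjusted p = 1.48e-05) for SEL120-34A. For AML874 the later effect on MIR222HG was also called lower. MIR1915HG, annotated as protein coding in GENCODE 29, also fell in all 4 comparisons (-0.65, -0.88, -0.50 and -0.44), and MIR503HG fell in all but SEL120-34A at 8 h (-0.48, -0.12 with adjusted p = 0.261, -0.71 and -0.40).

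MIR646HG (chr20:60087840-60527458, plus strand), host of miR-646, changed sign with time. It had 7.41, 7.06 and 7.76 CPM with DMSO, 13.3, 13.3 and 12.9 CPM with AML874 and 9.65, 9.33 and 10.2 CPM with SEL120-34A at 8 h. At 24 h MIR646HG had 11.5, 12.0 and 12.5 CPM with DMSO, 8.83, 9.97 and 9.84 CPM with AML874 and 9.07, 9.22 and 8.77 CPM with SEL120-34A. All groups were apart at 8 h, and at 24 h both compounds lay under DMSO. The effects were 0.83 (SE 0.056, adjusted p = 3.49e-14) and 0.39 (SE 0.058, adjusted p = 7.83e-07) at 8 h, -0.33 (adjusted p = 4.37e-06) and -0.42 (adjusted p = 1.6e-07) at 24 h. DMSO itself rose by 0.70 (SE 0.056, adjusted p = 3.59e-12).

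MIR155HG (chr21:25561909-25575168, plus strand), the BIC transcript that yields miR-155, had 23.8, 24.0 and 23.2 CPM with DMSO, 24.98, 25.2 and 25.6 CPM with AML874 and 21.2, 22.9 and 21.3 CPM with SEL120-34A at 8 h. At 24 h MIR155HG had 18.6, 18.6 and 19.4 CPM, 23.3, 23.2 and 21.7 CPM, and 20.05, 21.2 and 21.0 CPM. DMSO lay between the compounds at 8 h and below both at 24 h. The effects were 0.091 (adjusted p = 0.0676) and -0.12 (adjusted p = 0.0124) at 8 h, and 0.27 (adjusted p = 1.09e-06) and 0.14 (adjusted p = 0.00742) at 24 h. With library totals alone the 8 h values became 0.137 (adjusted p = 0.00663) and -0.057 (adjusted p = 0.278), the SEL120-34A call at 8 h was lost without its replicate 1 (-0.114, adjusted p = 0.0501) and that at 24 h without DMSO replicate 2 (0.116, adjusted p = 0.0569). MIR3142HG, which also carries miR-146a, an inhibitor of inflammatory signalling, rose at 24 h from 3.34, 3.36 and 3.61 CPM to 5.26, 5.38 and 4.92 CPM with AML874 (an effect of 0.59, SE 0.081, adjusted p = 1.53e-07) and 4.12, 4.68 and 4.98 CPM with SEL120-34A (0.42, SE 0.082, adjusted p = 8.68e-05).

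MIR762HG (chr16:30875222-30895220, plus strand) was higher in all 4 comparisons, at 0.62, 0.61, 0.90 and 0.87. Its 8 h levels were 2.01, 2.16 and 1.95 CPM with DMSO, 3.02, 3.04 and 3.36 CPM with AML874 and 3.15, 3.11 and 3.09 CPM with SEL120-34A. Reads on the opposite strand came to 506% of its counts, and with unstranded counts the 8 h values were 0.211 (adjusted p = 0.345) and 0.098 (adjusted p = 0.678). MIR34AHG, host of the p53-induced miR-34a, was higher at 8 h by 0.35 and 0.34 on the log2 scale (adjusted p = 0.000118 and 0.00014). MIR22HG, host of miR-22, stood at -0.27 (adjusted p = 0.0534) and -0.25 (adjusted p = 0.0664) at 8 h and at -0.63 (adjusted p = 5.06e-05) and -0.41 (adjusted p = 0.00633) at 24 h, the last lost without SEL120-34A replicate 3 (-0.306, adjusted p = 0.0724). The 8 h values of MIR22HG lay at the threshold: that for AML874 passed in 16 of 28 alternatives, among them the HIF covariate (-0.354, adjusted p = 0.022), and that for SEL120-34A in 2, the HIF covariate (-0.303, adjusted p = 0.026) and without SEL120-34A replicate 3 (-0.346, adjusted p = 0.0232). MIR22HG also fell over time in DMSO by 0.60 (adjusted p = 3.38e-05). Smaller rises at 8 h with AML874 were called for MIR924HG (0.23, adjusted p = 0.0254) and MIR4458HG (0.23, adjusted p = 0.0324), and neither held with every library left out in turn. MIR924HG was lost without any 1 of DMSO replicates 1 and 2 and AML874 replicates 1 and 2 at 8 h (lowest 0.13, adjusted p = 0.292). MIR4458HG was lost without DMSO replicate 1 or 3, any AML874 or SEL120-34A replicate at 8 h, or DMSO replicate 2 or 3 at 24 h (lowest 0.151, adjusted p = 0.233). For SEL120-34A, MIR924HG rose by 0.39 at 8 h (adjusted p = 0.000249), and at 24 h MIR29B2CHG rose by 0.34 (adjusted p = 0.00856), a call lost without SEL120-34A replicate 3 (0.231, adjusted p = 0.12). At 24 h MIR3677HG was at 0.57 with AML874 (adjusted p = 0.00549), with opposite-strand reads at 114% of its counts.

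**Figure D4:**
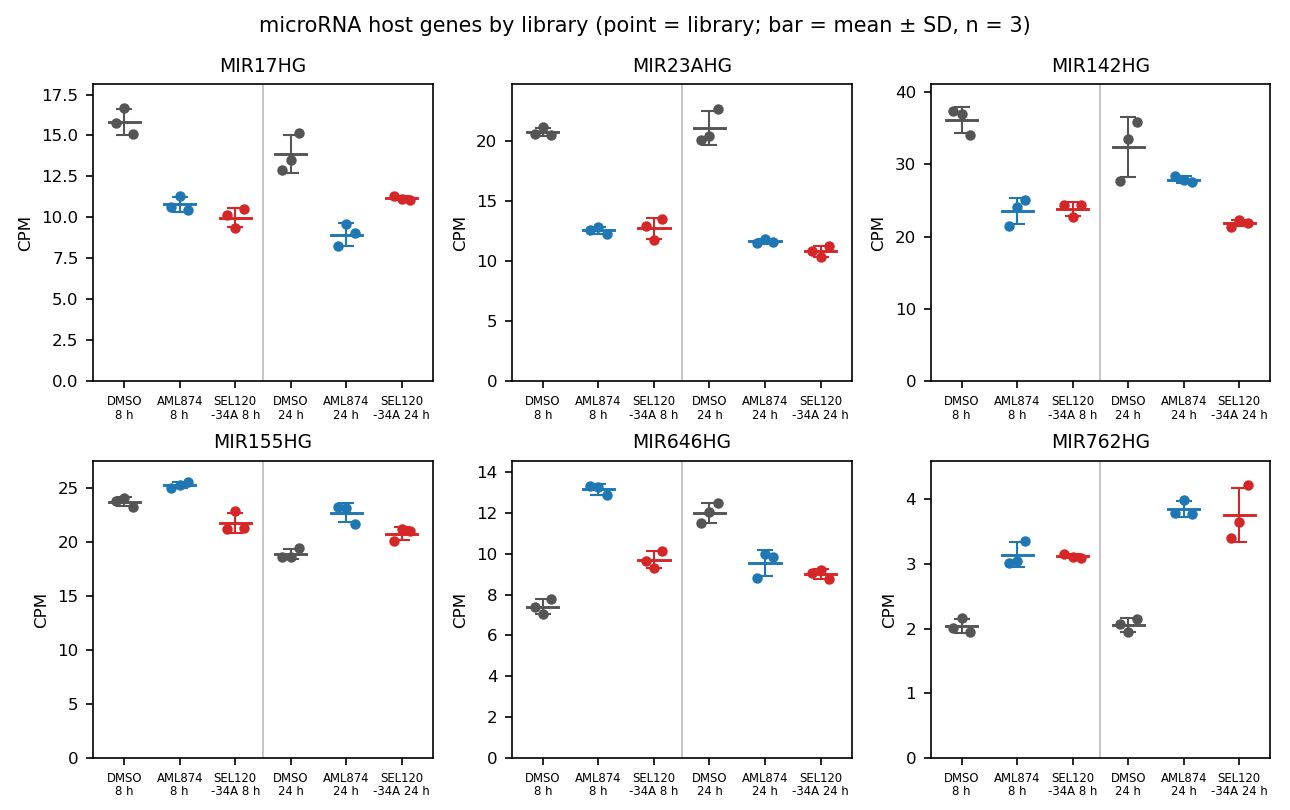
CPM of 6 microRNA hosts in each library (points), with the mean and SD of 3 libraries, for DMSO (grey), AML874 (blue) and SEL120-34A (red) at 8 h and 24 h. MIR23AHG and MIR17HG lie lower with both compounds at both times, and MIR646HG lies above DMSO at 8 h and below it at 24 h.

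Over the 4 comparisons with DMSO, 12 of 54 members (22.2%) fell in all of them, where 7.11% of all genes tested did. They were SNHG1, SNHG3, SNHG14, SNHG17, SNHG26, SNHG29, SNHG32, MIR17HG, MIR23AHG, MIR142HG, MIR222HG and MIR1915HG. SNHG31 and MIR762HG rose in all 4 (3.7%, against 6.61% of all genes). Calls in both directions were made for 11 members (20.4%, against 8.37%), among them SNHG5, SNHG10, SNHG19, MIR600HG, MIR646HG and MIR155HG. For SNHG5 the rise with SEL120-34A at 24 h (0.061, adjusted p = 0.0458) was kept in 4 of 28 alternatives, and for SNHG32 the last of its falls (-0.16) was lost with RSEM counts (-0.034, adjusted p = 0.375). SNHG25, MIR181A1HG, MIR3936HG and MIRLET7BHG passed the test in none of the 4 (7.41%, against 29.2%). The 4 comparisons share DMSO libraries in pairs, so these counts are descriptions.

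**Figure D5:**
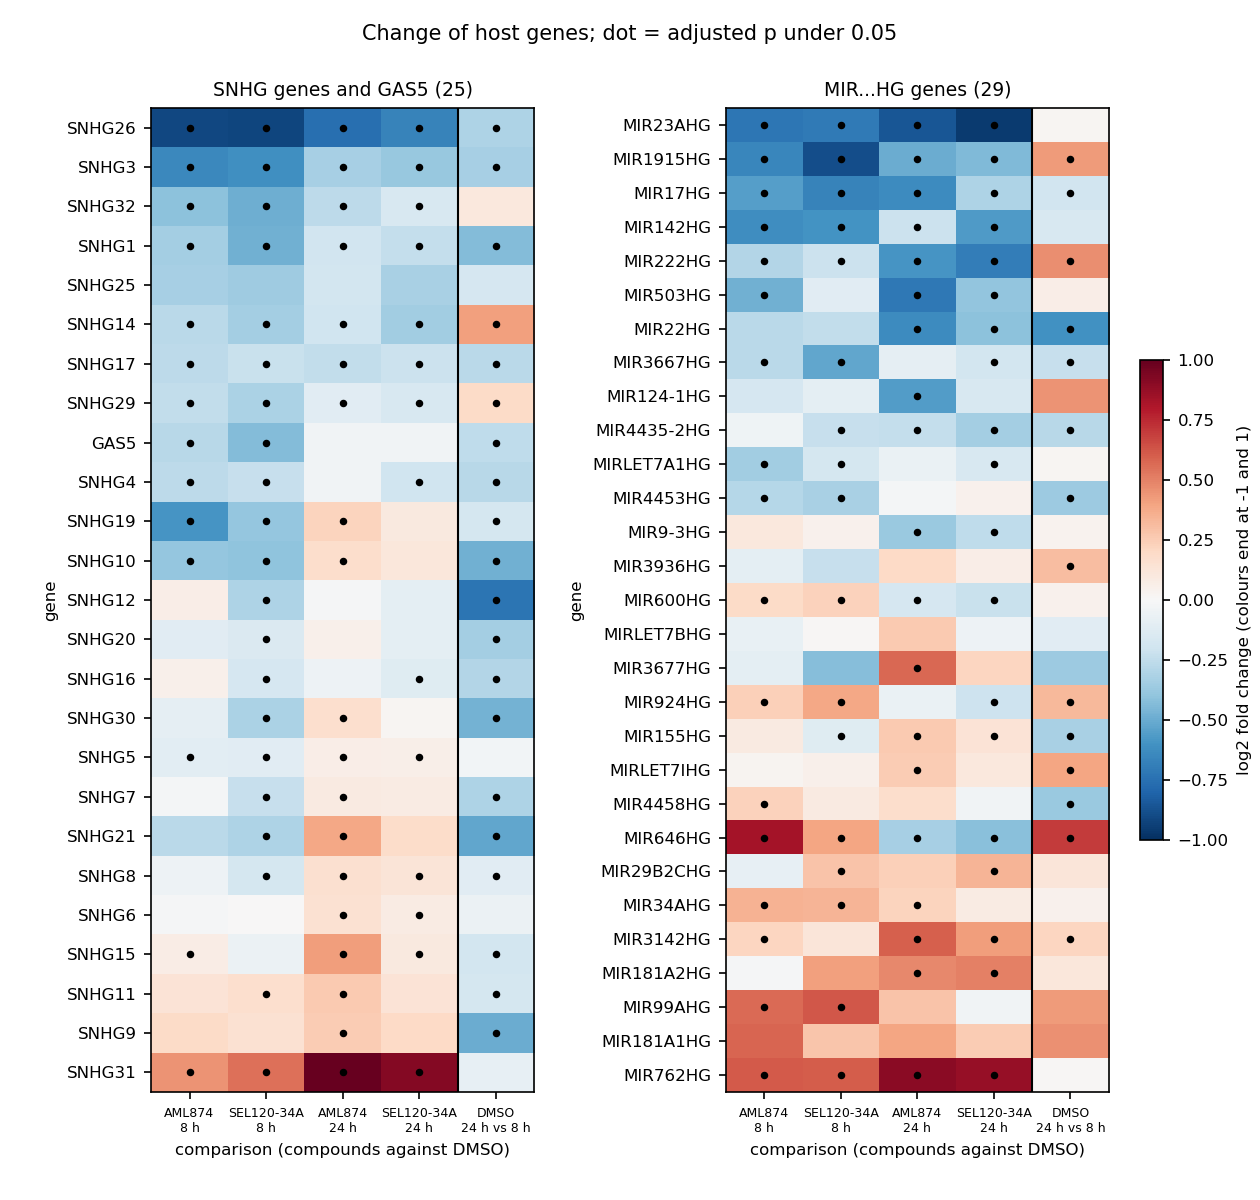
Log2 fold change (colour, ending at -1 and 1) of 25 snoRNA hosts and 29 microRNA hosts for each compound against DMSO and, right of the line, for DMSO at 24 h against 8 h. Dots mark an adjusted p under 0.05, and 12 genes carry dots on blue in all 4 columns of compounds.

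The compounds were compared directly at each time, with p-values adjusted over all genes. At 8 h, 13 members were higher and 4 lower with AML874 than with SEL120-34A, where 31.2% of all genes differed (16% higher and 15.2% lower), and 9 of the 13 were snoRNA hosts. At 24 h 5 were higher and 2 lower, where 19.6% differed (8% higher and 11.6% lower). SNHG12 had 37.4, 38.6 and 39.0 CPM with AML874 and 29.3, 27.4 and 31.6 CPM with SEL120-34A at 8 h, a difference of 0.38 (SE 0.048, adjusted p = 2.8e-07). GAS5 was higher with AML874 by 0.15 (95% interval 0.10 to 0.21, adjusted p = 1.42e-05), SNHG1 by 0.14 (adjusted p = 0.000112) and MIR646HG by 0.44 (adjusted p = 9.91e-08), whereas MIR503HG was at -0.37 (adjusted p = 0.000687), MIR29B2CHG at -0.37 (adjusted p = 0.00783) and SNHG19 at -0.21 (adjusted p = 0.00537). In mean TPM GAS5 was not higher with AML874 at 8 h (378 TPM, against 386 TPM with SEL120-34A). The GAS5 call at 8 h was kept in all 28 alternatives, rounded RSEM counts among them. The MIR29B2CHG call was lost without AML874 replicate 1 (-0.255, adjusted p = 0.0971). For SNHG26 the difference at 8 h was 0.0065 with an interval of -0.099 to 0.11, and for MIR23AHG -0.017 with an interval of -0.12 to 0.089. MIR17HG did not pass at 8 h (0.11, interval -0.012 to 0.24, adjusted p = 0.174) and was lower with AML874 at 24 h, at -0.32 (interval -0.45 to -0.19, adjusted p = 0.000236). At 24 h SNHG15 was higher with AML874 by 0.33 (adjusted p = 9.24e-10), MIR142HG by 0.35 (adjusted p = 0.00473) and SNHG31 by 0.46 (adjusted p = 0.0275), the last lost without AML874 replicate 3 (0.311, adjusted p = 0.214), SEL120-34A replicate 1 (0.368, adjusted p = 0.144) or SEL120-34A replicate 2 (0.452, adjusted p = 0.0572). MIR503HG was again lower with AML874 (-0.32, adjusted p = 0.00656), a call lost without AML874 replicate 2 (-0.233, adjusted p = 0.0757), and MIR155HG was higher (0.13, adjusted p = 0.0191), a call lost without AML874 replicate 1 or 2 or SEL120-34A replicate 1 (lowest 0.105, adjusted p = 0.12). The GAS5 difference at 24 h was 0.0055 (interval -0.047 to 0.058, adjusted p = 0.92).

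Genes that work with the hosts were described from lists, beside 39.6%, 45.1%, 46.8% and 37.7% of all genes that changed with AML874 and SEL120-34A at 8 h and then at 24 h. Of 47 protein-coding snoRNA hosts, mostly ribosomal protein and translation factor genes, 6 were higher and 22 lower with AML874 and 1 higher and 30 lower with SEL120-34A at 8 h. At 24 h, 22 were higher and 11 lower, and 14 higher and 12 lower, and the late-minus-early test gave 25 higher and 3 lower for AML874 and 28 higher and 0 lower for SEL120-34A. In the late-minus-early test, 11.1% of all genes were higher and 12.5% lower for AML874, and 14.2% higher and 13% lower for SEL120-34A. EIF4A2, an RNA helicase of translation initiation, fell by 0.55 with SEL120-34A at 8 h on the log2 scale (adjusted p = 9.8e-20), and SF3B3, a splicing factor, fell in all 4 comparisons (-0.31, -0.45, -0.34 and -0.29). The noncoding hosts under other names were ZFAS1, DANCR and EPB41L4A-AS1: ZFAS1 and DANCR fell with both compounds at 8 h (DANCR by 0.36 and 0.47 on the log2 scale), and EPB41L4A-AS1 was higher with AML874 at 24 h (0.32, adjusted p = 5.6e-09). Of 18 snoRNP proteins and assembly factors, 4 were higher and 4 lower, 4 and 7, 1 and 8, and 4 and 6 in the 4 comparisons in the order above (44.4% to 61.1% of the list). Over time in DMSO 17 of them fell (median -0.21), where 22.7% of all genes were lower. DKC1, the pseudouridine synthase of H/ACA particles and itself on the list of protein-coding hosts, fell by 0.24 and 0.26 on the log2 scale at 8 h. Of 16 nonsense-mediated decay factors, 2 were higher and 9 lower, 5 and 7, 3 and 9, and 3 and 3 (68.8%, 75.0%, 75.0% and 37.5%). SMG5, which recruits decay enzymes, fell in all 4 (-0.16, -0.27, -0.38 and -0.20), and SMG6, the endonuclease, rose by 0.39 with either compound at 24 h. Of 20 microRNA processing genes, 4 were higher and 8 lower, 2 and 12, 1 and 15, and 3 and 9 (60.0% to 80.0%), and DROSHA rose in all 4 (0.27, 0.31, 0.24 and 0.15).

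The annotated start sites of hosts were compared, since hosts with a start tract form a known class. A RefSeq window (GRCh38.p14) of 250 bases before to 50 after the start was found for 21 snoRNA hosts. A start base C followed by at least 4 bases that are each C or T, read on the gene's own strand, was present in 5 of these 21 windows (23.8%), in 1 of 34 windows of microRNA hosts (2.94%), in 58.2% of 79 windows of ribosomal protein genes and in 4.07% of all 35116 windows. The search began only at the annotated start base, so a window without a match does not show that the host lacks a tract. The 5 hosts with a match were SNHG12, SNHG4, SNHG5, SNHG19 and SNHG32. The 40 bases around the start are printed for the first 4 of these, with the tract in capitals.
SNHG12 (chr1:28581854-28581893, minus strand): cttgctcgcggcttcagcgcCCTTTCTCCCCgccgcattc
SNHG4 (chr5:139274081-139274120, plus strand): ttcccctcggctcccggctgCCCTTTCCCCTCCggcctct
SNHG5 (chr6:85678714-85678753, minus strand): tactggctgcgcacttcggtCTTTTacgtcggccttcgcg
SNHG19 (chr16:2155339-2155378, minus strand): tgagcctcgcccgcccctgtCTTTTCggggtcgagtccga
With SEL120-34A at 8 h all 5 fell, SNHG12 by 0.31, SNHG4 by 0.23, SNHG5 by 0.12, SNHG19 by 0.38 and SNHG32 by 0.49 on the log2 scale. Of all 25 snoRNA hosts, 19 fell in this comparison, 12 with AML874 at 8 h and 18 over time in DMSO. Of all genes tested, 22.6%, 19.9% and 22.7% were lower in turn. A link between the tract and the changes was not tested. With AML874 at 8 h SNHG12 was at 0.070 (adjusted p = 0.258), and SNHG4 (-0.26), SNHG5 (-0.11), SNHG19 (-0.59) and SNHG32 (-0.41) fell. Over time in DMSO, SNHG12 (-0.73), SNHG4 (-0.28) and SNHG19 (-0.17) fell, while SNHG5 at -0.031 and SNHG32 at 0.11 did not pass the test. At 24 h SNHG32 fell with both compounds (-0.26 and -0.16), and SNHG5 (0.068 and 0.061) was higher with both. The E box CACGTG (its own reverse complement, so 1 search covers both strands) lay in 9.52% of windows of snoRNA hosts, 2.94% of those of microRNA hosts and 7.26% of all.

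Of the members, 8 start within 2000 bases of the start of a protein-coding gene on the opposite strand, or overlap it by up to 500 bases. Both genes passed the test in 4 pairs at 8 h with each compound, in the same direction in 1 and in opposite directions in 3. At 24 h both passed in 4 pairs with AML874, in the same direction in 3 and in opposite directions in 1, and in 1 pair with SEL120-34A, in the same direction. Of all genes tested, 39.6% (AML874) and 45.1% (SEL120-34A) changed at 8 h, and 46.8% and 37.7% at 24 h. The pairs are few, and whether their directions depart from those of other genes was not tested. SNHG1 and SLC3A2, an amino acid transporter chain 188 bases away, fell together in all 4 comparisons, with SLC3A2 at -0.14, -0.26, -0.39 and -0.25. SNHG19 fell at 8 h while TRAF7, 340 bases away, rose by 0.27 and 0.20 on the log2 scale, and with AML874 at 24 h both were higher (0.22 for SNHG19 and 0.12 for TRAF7). SNHG9 and RPS2 were also both higher with AML874 at 24 h (0.25 and 0.09), and SNHG31 rose with AML874 at 24 h while BARD1 was at -0.09 (adjusted p = 0.0177).

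Counts of the small RNA genes themselves were few. GENCODE 29 places 184 snoRNA and microRNA genes inside the members on the same strand, 84 of them in SNHG14, and 33 had at least 1 count in any library. Of the 72 that touch a host exon, 70 were at 0 counts. A read that fits exons of 2 genes on the same strand is counted for neither, so these zeros do not show absence. The 4 with a mean of at least 0.5 CPM were SNORA73B in SNHG3 (2.53 CPM), SNORD104 in SNHG25 (2.06 CPM), SNORA71B in SNHG17 (1.14 CPM) and MIR221 in MIR222HG (0.705 CPM). Polyadenylated RNA does not measure the processed small RNAs, so the counts cannot be set beside the hosts' changes.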

How the data were processed

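Polyadenylated RNA of OCI-AML1 cells was sequenced in 18 libraries, 3 per group. The authors aligned reads to GRCh38 with STAR 2.7.1a and quantified them with RSEM 1.3.2, per the submitters' processing notes; the annotation release is not given in the sources used here. The deposited count files hold unstranded, forward and reverse columns, and the reverse counts were used (forward counts were 6.27 to 6.66% of them). Summary lines, 21.9 to 25.5% of reads, were left out. The deposited RSEM files give expected counts, rounded to whole numbers for 1 alternative. They also give TPM, which the authors scaled for length and depth. TPM served to rank genes and was set beside the CPM of GAS5.

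Counts were filtered with filterByExpr (20920 genes, all 54 members), scaled by TMM (factors 0.971 to 1.02) and fitted with edgeR 4.0.16 (R 4.3.3) as 1 quasi-likelihood model of 6 groups with 12 residual degrees of freedom; the scripts were tested on simulated data. CPM of members in single libraries are counts over library totals multiplied by the TMM factors. The CPM used to choose members, and marker, summed and small RNA CPM, are counts over library totals alone. Standard errors are the log2 fold change over the root of F. DESeq2 1.42.0, other filters and scalings, a replicate block, unstranded counts, a covariate and leaving out each library were alternatives. Replicate numbers were not taken to pair libraries: of 45 same-number pairs 0 had deviations correlated over 0.1 (-0.06 to 0.057). These correlations run over all genes tested, rare ones included, and cannot exclude shared handling by number. Named members are the up to 5 largest rises and falls against DMSO and up to 3 elsewhere among called members of at least 1 CPM, plus GAS5, SNHG1, MIR17HG, MIR155HG and MIR22HG; list genes are up to 3 by p; others named were chosen after their values were seen. Members and lists were chosen with earlier results of these data known. Positions are from GENCODE 29.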

Additional observations from a re-analysis of the deposited data

Results flagged for a closer look

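Of the members named by the rule, 19 effects differed between 24 h and 8 h by the test of the difference itself (edgeR, adjusted p under 0.05). For AML874 the later effect was higher for SNHG31 by 0.93, SNHG19 by 0.81, MIR3677HG by 0.67, GAS5 by 0.24, MIR155HG by 0.17 and SNHG1 by 0.15 (log2). It was lower for MIR646HG (-1.16), MIR9-3HG (-0.48) and MIR600HG (-0.36). For SEL120-34A the later effect was higher for SNHG10 by 0.52, SNHG21 by 0.49, SNHG19 by 0.48, GAS5 by 0.39, MIR17HG by 0.35, MIR155HG by 0.26 and SNHG1 by 0.24, and lower for MIR646HG (-0.81), MIR924HG (-0.60) and MIR222HG (-0.48). The MIR3677HG call was lost without DMSO replicate 1 or 3 or AML874 replicate 2 or 3 at 8 h, and without DMSO or AML874 replicate 1 or 2 at 24 h (lowest 0.545, adjusted p = 0.122, without DMSO replicate 1 at 24 h). That of SNHG21 was lost without DMSO replicate 2 or 3 or SEL120-34A replicate 1 or 2 at 8 h, and without DMSO replicate 3 or SEL120-34A replicate 1 at 24 h (lowest 0.428, adjusted p = 0.0981, without the last). It was also lost with rounded RSEM counts (0.182, adjusted p = 0.209), library totals alone (0.421, adjusted p = 0.0679) and a filter of at least 1 count (0.49, adjusted p = 0.0774), and that of MIR3677HG with library totals alone (0.622, adjusted p = 0.0571). MIR155HG for AML874 was lost without AML874 replicate 1 (0.156, adjusted p = 0.0628) or 2 (0.157, adjusted p = 0.0641) at 24 h.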

How the results depend on the processing

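Over 128 named values and their alternatives, 3492 of 3584 kept their side of the threshold, 66 fell short of it, 26 newly passed it and 0 reversed. A change of sign was counted as a reversal only where the main or the alternative value passed. The alternatives include leaving out libraries of groups not compared, which can change a value little. Counts over all 54 members moved by over 1.5 times as follows, and the cause was not tested. With AML874 at 8 h, members higher went from 10 to 6 with the HIF target mean as a covariate and to 4 to 11 with single libraries left out, at 4 without DMSO replicate 1 or 2 or AML874 replicate 2, 5 without DMSO replicate 3 or AML874 replicate 1 and 6 without SEL120-34A replicate 3. For AML874 against SEL120-34A, members higher at 24 h went from 5 to 9 with a filter of 1 CPM in 3 libraries, to 8 with the covariate and to 3 to 7 with libraries left out (3 without SEL120-34A replicate 1), members lower at 24 h ranged from 1 to 2 (1 without AML874 replicate 2) and members lower at 8 h from 2 to 4 (2 without AML874 replicate 1). For the late-minus-early effect of AML874, members lower went from 4 to 7 with library totals alone. MIR17HG in DMSO over time (-0.19, adjusted p = 0.00684) was at -0.064 (adjusted p = 0.509) with the covariate, -0.146 (adjusted p = 0.0806) with rounded RSEM counts and -0.137 (adjusted p = 0.109) without DMSO replicate 2 at 8 h, and was also lost without DMSO replicate 1 or 2 at 24 h. A replicate block, for libraries that share a number, gave 9 higher and 21 lower with AML874 at 8 h. The block moved no count over all 54 members by over 1.5 times. Of 18 libraries, 4 correlated best with their own number. Depth limits the members near 0.5 CPM.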
